A study of Mus musculus with 8 samples.

Results

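The TNF superfamily ligands measured here were Tnf, Lta, Ltb, Tnfsf4, Tnfsf9, Tnfsf10, Tnfsf13b, Tnfsf15 and Fasl, taken as every probe of the array whose gene name is one of these 9 of the 27398 names on the array. A total of 8 of the 9 genes gave a signal that could be tested, and both probes of Fasl stayed below the background limit on every array. After LPS, 6 of the 8 tested ligands rose and Ltb fell, both in wild-type (WT) and in miR-155 knockout (KO) dendritic cells. The expression of none of the 8 differed between the genotypes past the threshold, in unstimulated cells or after LPS.

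Ligands of this family are mostly made as membrane proteins that assemble into trimers, and several are cut from the cell surface to act at a distance. Each binds 1 or a few receptors of the TNF receptor family, which recruit TRAF proteins or death-domain adaptors and so switch on NF-kB signalling or cell death. Dendritic cells sense LPS, a component of the outer membrane of Gram-negative bacteria, through the receptor Tlr4, and then use cytokines such as Tnf and co-stimulatory ligands such as Tnfsf4 and Tnfsf9 in contact with T cells.

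Total bone marrow of male C57BL/6Jax mice was cultured for 7 days in 40 ng/mL GM-CSF, a growth factor that yields dendritic cells from marrow precursors, after which part of the culture was given LPS (100 ng/mL, 16 h). Dendritic cells were sorted by FACS into 4 groups: WT unstimulated, WT LPS, KO unstimulated and KO LPS, with 2 one-colour arrays in each. The unstimulated cells were sorted as CD86-negative, and the LPS cells as CD86-positive from the adherent, activated fraction. The LPS comparison is therefore also a comparison of 2 sort gates, and the effect of LPS and that of the gate cannot be told apart. The labels do not say whether the 2 replicates of a group came from separate mice or cultures, so a p-value measures only the spread between these arrays, which may be technical. KO cells lack the microRNA miR-155 by genotype label; no array probe is named Mir155, Mir155hg or Bic, so the deletion was not checked here.

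Between 50.8% and 58.3% of the spots on an array were well above background by the scanner software's own flag, none was saturated, and 15401 genes passed the filter on dim probes. The arrays lay on 2 slides: slide 1 held both WT unstimulated arrays with the second replicates of WT LPS and KO unstimulated, and slide 2 held both KO LPS arrays with the first replicates of WT LPS and KO unstimulated. Of 10 dendritic cell markers, among them Itgax (CD11c), Flt3 and Zbtb46, 10 were above background on every unstimulated array and 9 or 10 on every LPS array. Of 11 macrophage and monocyte markers, 11 were above background on every unstimulated array and 10 on every LPS array. GM-CSF culture of marrow is known to give both kinds of cell, and the arrays hold RNA of the whole sorted population.

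The microRNA that the KO cells lack is printed first, since the genotype comparison turns on it. Mature miR-155 is encoded at chr16:84714143-84714165 (plus strand, GRCm38.p6, RefSeq). Its seed, bases 2 to 8, through which a microRNA pairs with messenger RNA, is in capitals.
mmu-miR-155-5p: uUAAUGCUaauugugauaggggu

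The 250 bases before the annotated start follow for Tnfsf10, Tnf and Ltb, the 3 ligands that changed with LPS in both genotypes and whose window overlaps no annotated gene. They show 2 neighbouring genes that went in opposite directions, Tnf and Ltb, beside a gene from another chromosome. RefSeq windows (GRCm38.p6) were found for 7 of the 9 ligands. An NF-kB-like pattern, GGG followed by any 5 bases and then CC, was searched on both strands and is in capitals, with overlapping matches merged.
Tnfsf10 (chr3:27316827-27317076, plus strand): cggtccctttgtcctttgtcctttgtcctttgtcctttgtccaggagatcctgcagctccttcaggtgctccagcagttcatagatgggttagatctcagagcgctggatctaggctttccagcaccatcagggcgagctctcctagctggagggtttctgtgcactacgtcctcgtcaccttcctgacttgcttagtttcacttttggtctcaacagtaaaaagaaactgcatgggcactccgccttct
Tnf (chr17:35202008-35202257, minus strand): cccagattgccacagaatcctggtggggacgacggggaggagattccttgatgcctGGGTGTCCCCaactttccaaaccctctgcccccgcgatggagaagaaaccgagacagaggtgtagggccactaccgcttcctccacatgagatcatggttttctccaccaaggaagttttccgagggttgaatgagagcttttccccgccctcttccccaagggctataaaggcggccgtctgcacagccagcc
Ltb (chr17:35194257-35194506, plus strand): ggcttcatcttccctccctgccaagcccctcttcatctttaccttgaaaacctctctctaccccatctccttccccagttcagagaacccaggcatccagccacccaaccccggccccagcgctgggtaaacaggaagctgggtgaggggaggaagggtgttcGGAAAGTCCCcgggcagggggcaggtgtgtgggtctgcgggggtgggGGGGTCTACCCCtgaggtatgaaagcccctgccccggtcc

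The Tnf window held the NF-kB-like pattern at bases 194 to 185 before the start, where it matched on both strands. The Ltb window held 5 matches, 1 of them GGGACTTTCC on the minus strand at bases 87 to 78 and the other 4 overlapping each other closer to the start. The Tnfsf10 window held none. Windows of Lta and Fasl held 2 matches and 1 match, which makes 4 of the 7 ligands with a window. The pattern is loose, and 45.8% of all 32851 mouse windows of that length hold it. A second pattern, an interferon-response-like GAAA, any 2 bases and GAAA, was found in 1 of the 2 windows of Tnfsf13b and in no window of the other 6 ligands, against 2.98% of all windows. A match is a string of letters and was not tested for binding of a factor.

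All signals below are on 1 scale, the log2 processed signal minus the array's 75th percentile, so that 0 is the level of the 75th percentile and 1 unit is a doubling. Levels of different probes are not compared with each other, because probes differ in brightness. Differences are LPS minus unstimulated or KO minus WT, with the standard error (SE) from limma, and a gene is called changed where the adjusted p over all genes is under 0.05. After LPS, 7 of the 8 tested ligands were called in WT (6 higher, 1 lower) and 7 of 8 in KO (6 higher, 1 lower). Of all tested genes, 20.2% were called in WT (9.48% called higher) and 20.8% in KO (10.3% called higher). An unadjusted p under 0.05 was reached by 34.7% of all genes in WT and 34.2% in KO. The median difference of the 8 ligands was 4.28 in WT and 4.15 in KO, beside 0 and 0.05 over all genes. The filter admits a gene through the group where it is bright, so these counts describe the 8 ligands that passed and not all 9. Lta, Tnfsf4, Tnfsf10 and Tnfsf15 passed it through the LPS groups alone, so their part in the counts and medians is not independent of the filter. Arrays of sorted cells measure RNA per population, so fewer cells of a type and less RNA per cell cannot be told apart.

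**Figure D1:**
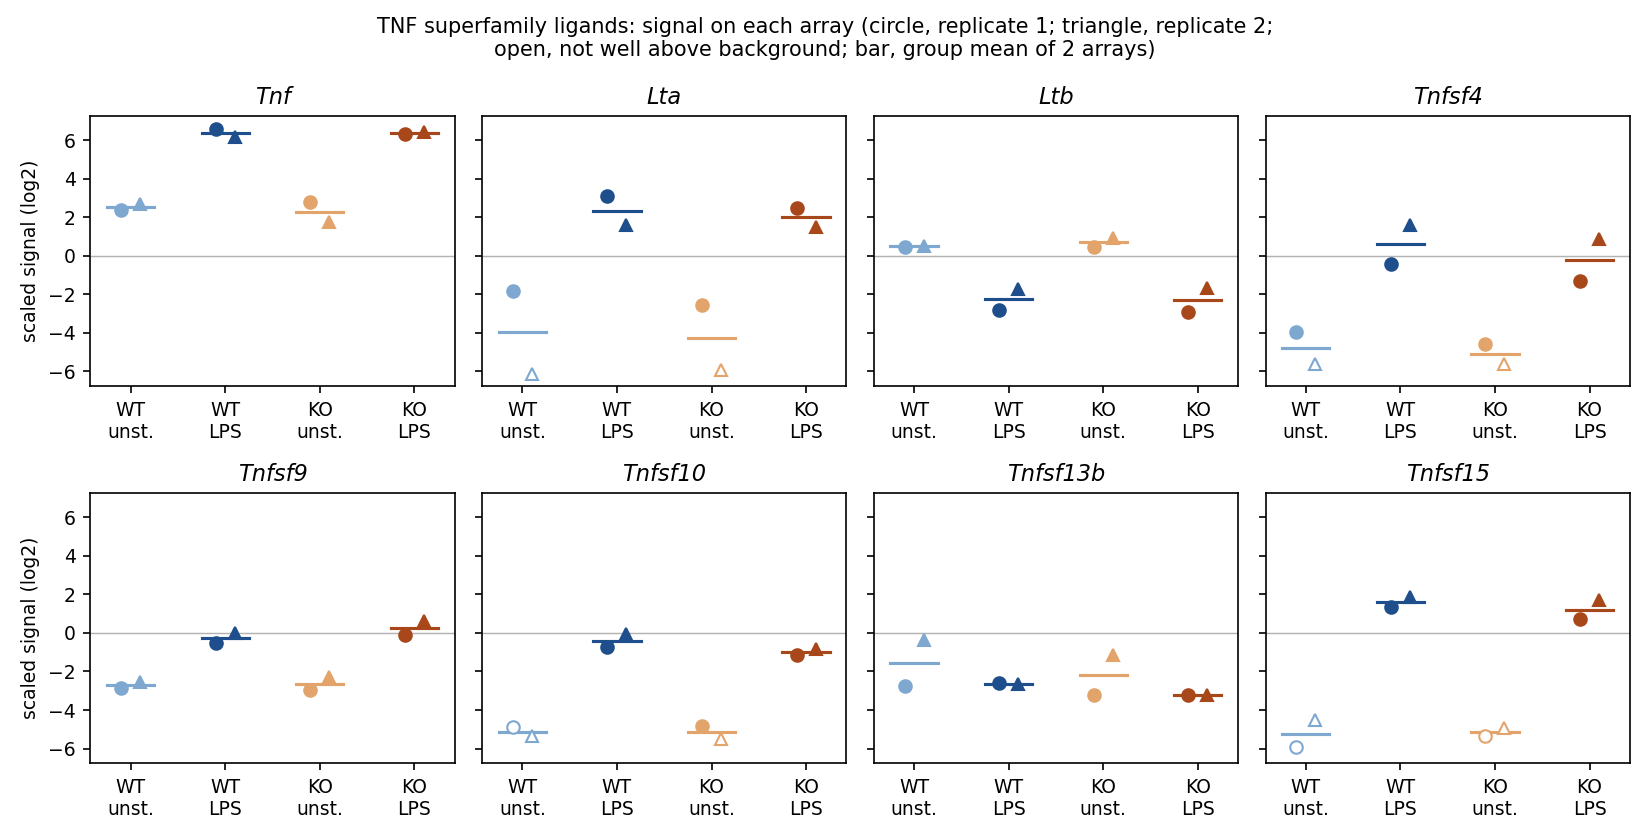
The scaled log2 signal of each tested ligand (y axis) is plotted for each of the 8 arrays by group (x axis), with circles for replicate 1, triangles for replicate 2, open symbols for a signal not well above background and a bar for the mean of 2 arrays. Unstimulated and LPS arrays are apart within each genotype for every ligand but Tnfsf13b, and for Lta the second replicate of each unstimulated group is an open symbol far below the first.

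Tnf, the inflammatory cytokine that gives the family its name, rose in both genotypes. Its probe lies at chr17:35336795-35336854 (minus strand, mm9). The signals were 2.39 and 2.69 in WT unstimulated, 6.6 and 6.16 in WT LPS, 2.78 and 1.76 in KO unstimulated, and 6.32 and 6.43 in KO LPS. All 4 LPS arrays lay above all 4 unstimulated arrays, and within each condition the genotypes overlapped. The LPS difference was 3.84 ± 0.39 (SE) in WT, a 14.4-fold rise (adjusted p = 0.0014). In KO it was 4.11 ± 0.39, a 17.2-fold rise (adjusted p = 0.000962). Tnf was called in both genotypes under each of the 21 alternative settings, with slide as a block (3.48 ± 0.31 in WT and 3.74 ± 0.31 in KO) and within 1 slide (3.62 ± 0.49 and 3.6 ± 0.31) among them. Within-slide fits here and below have 1 array in one arm (WT LPS on slide 1, KO unstimulated on slide 2), which is assumed to vary like the group with 2 arrays on that slide.

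Lta encodes lymphotoxin alpha, which is secreted as a trimer that binds the TNF receptors or joins lymphotoxin beta at the cell surface. Its probe lies next to Tnf, at chr17:35340275-35340334 (minus strand, mm9). The signals were -1.82 and -6.12 in WT unstimulated, 3.11 and 1.58 in WT LPS, -2.56 and -5.93 in KO unstimulated, and 2.49 and 1.5 in KO LPS. All LPS arrays were above all unstimulated arrays, but in each unstimulated group only replicate 1 was well above background. The difference was 6.31 ± 1.57 in WT, 79.5-fold (adjusted p = 0.0328), and 6.24 ± 1.57 in KO, 75.5-fold (adjusted p = 0.0327), with 1 of 2 unstimulated arrays measured in each.

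The Lta call in WT did not pass without WT unstimulated replicate 2 (4.16, adjusted p = 0.111), without WT LPS replicate 1 (5.55, adjusted p = 0.142) or without WT LPS replicate 2 (7.08, adjusted p = 0.0789). In KO the Lta call did not pass without KO unstimulated replicate 2 (4.55, adjusted p = 0.174), without KO LPS replicate 1 (5.75, adjusted p = 0.126) or without KO LPS replicate 2 (6.73, adjusted p = 0.0837). With slide as a block the Lta difference was 5.09 ± 1.52 in WT (adjusted p = 0.0802) and 5.01 ± 1.52 in KO (adjusted p = 0.0824), and within 1 slide it was 5.55 ± 1.62 (adjusted p = 0.098) and 4.55 ± 0.55 (adjusted p = 0.0548). The rise of Lta was thus positive in every one of the 21 settings run and past the threshold in 15 of them in each genotype. With normexp background correction it was 4.42 ± 0.8 in WT and 4.11 ± 0.8 in KO, both called.

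Ltb, which encodes the membrane-bound partner of Lta that directs the complex to the receptor Ltbr, was the ligand that fell. Its probe lies at chr17:35333097-35333156 (plus strand, mm9), so the probes of Ltb, Tnf and Lta fall within 7238 bases. The signals were 0.47 and 0.53 in WT unstimulated, -2.79 and -1.7 in WT LPS, 0.48 and 0.93 in KO unstimulated, and -2.92 and -1.69 in KO LPS. Every array was well above background, and all LPS arrays were below all unstimulated arrays. The difference was -2.74 ± 0.51 in WT, a 6.69-fold fall (adjusted p = 0.0127). It was -3.01 ± 0.51 in KO, an 8.07-fold fall (adjusted p = 0.0085). The WT call did not pass without WT unstimulated replicate 1 (-2.77, adjusted p = 0.0559), without WT unstimulated replicate 2 (-2.71, adjusted p = 0.0534) or without WT LPS replicate 1 (-2.2, adjusted p = 0.0638), and the KO call did not pass without KO unstimulated replicate 2 (-2.79, adjusted p = 0.0616). The Ltb call held with slide as a block (-2.36 ± 0.5 and -2.63 ± 0.5) and within slide 1 in WT (-2.2 ± 0.48, adjusted p = 0.0448), but not within slide 2 in KO (-2.79 ± 0.66, adjusted p = 0.122) or with normexp background correction (-2.18 ± 0.64 with adjusted p = 0.084 in WT, -1.88 ± 0.64 with adjusted p = 0.106 in KO).

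The 3 adjacent ligand genes thus moved in 2 directions, with Tnf and Lta higher and Ltb lower after LPS in both genotypes. The array carries 10 spots of the same probe for Tnf and for Lta, which show how far the signal of 1 hybridisation varies. The SD of the log2 signal over the spots of 1 array was 0.03 to 0.08 for Tnf. For Lta it was 0.06 to 0.14 on the arrays where the probe was above background, and 0.61 and 0.63 on the 2 arrays where it was not. Spots of 1 array share a sample, so this spread holds no difference between samples. The gap between the 2 unstimulated replicates of Lta was 4.3 in WT and 3.37 in KO, but replicate 2 was not well above background in either, so the size of the gap is not measured.

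**Figure D2:**
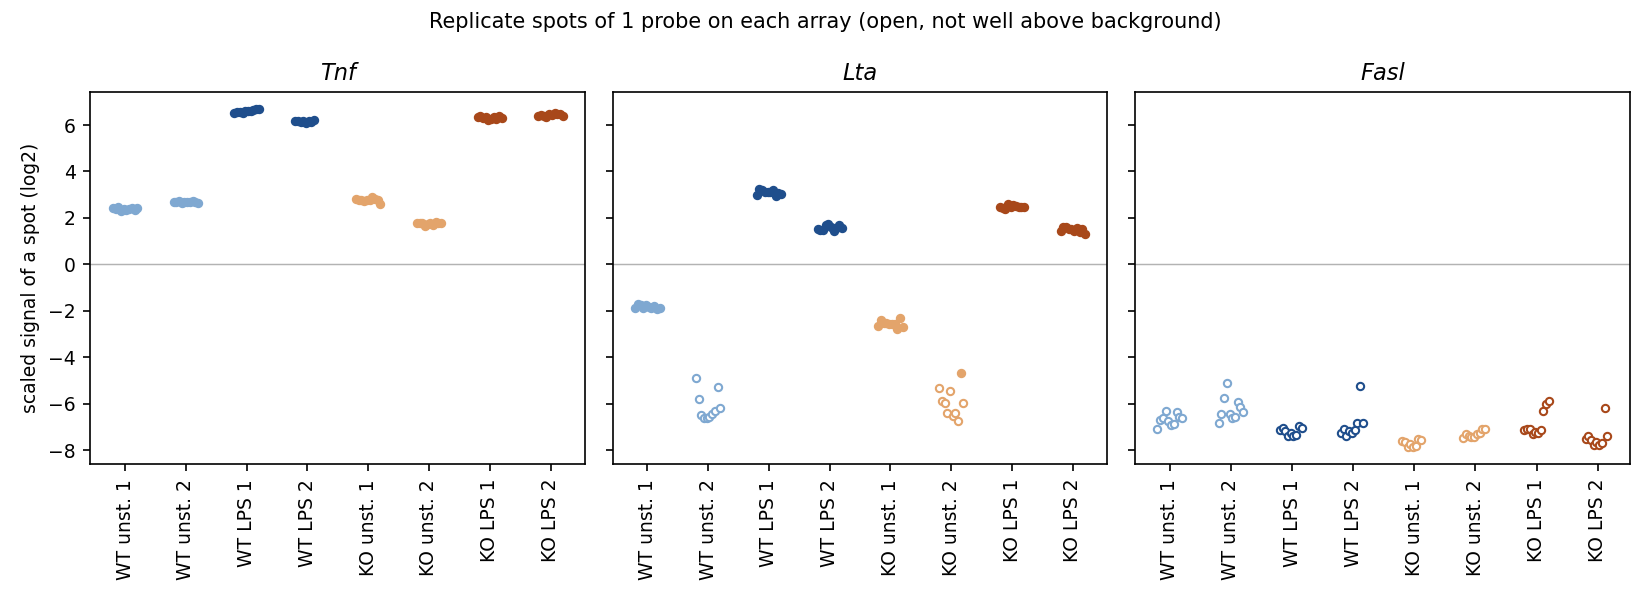
Each point is 1 spot of the probe of Tnf, Lta or Fasl that is spotted 10 times on an array (y axis, scaled log2 signal), shown for the 8 arrays (x axis) without outlying spots; open points are not well above background. Tnf spots of an array lie close together, Lta spots scatter on the second replicate of both unstimulated groups, and no Fasl spot is above background.

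Tnfsf4 and Tnfsf9 encode co-stimulatory ligands that antigen-presenting cells show to T cells, and both rose. Tnfsf4, the ligand of the receptor Tnfrsf4 (OX40), has its probe at chr1:163348095-163348153 (plus strand, mm9). Its signals were -3.93 and -5.63 in WT unstimulated, -0.4 and 1.58 in WT LPS, -4.56 and -5.63 in KO unstimulated, and -1.31 and 0.85 in KO LPS. The second replicate of each unstimulated group was not well above background, and the LPS arrays all lay higher. The difference was 5.38 ± 0.99 in WT, 41.6-fold (adjusted p = 0.0118), and 4.87 ± 0.99 in KO, 29.2-fold (adjusted p = 0.0156). The call did not pass in WT without WT unstimulated replicate 2 (4.53, adjusted p = 0.0571) or without WT LPS replicate 2 (4.39, adjusted p = 0.0601), nor in KO without KO unstimulated replicate 2 (4.33, adjusted p = 0.0991) or without KO LPS replicate 2 (3.79, adjusted p = 0.0675). With slide as a block the Tnfsf4 difference was 5.6 ± 1.17 in WT and 5.1 ± 1.17 in KO, both called; within 1 slide it was 6.37 ± 0.78 in WT and 4.33 ± 1.06 in KO, the latter with adjusted p = 0.129. With normexp background correction, which lifts dim signals, it was 3.34 ± 0.67 and 2.86 ± 0.67, called in both.

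Tnfsf9, the ligand of Tnfrsf9, has its probe at chr17:57246520-57246579 (plus strand, mm9). Its signals were -2.88 and -2.55 in WT unstimulated, -0.5 and 0.01 in WT LPS, -2.98 and -2.29 in KO unstimulated, and -0.13 and 0.62 in KO LPS. Every array was well above background, and the LPS arrays of both genotypes were above all unstimulated arrays. The difference was 2.47 ± 0.39 in WT, a 5.55-fold rise (adjusted p = 0.00701), and 2.88 ± 0.39 in KO, a 7.35-fold rise (adjusted p = 0.00363). Tnfsf9 kept its call whichever array was left out. It missed the threshold in WT with normexp background correction (1.86 ± 0.5, adjusted p = 0.0594) and in KO within slide 2 (3.23 ± 0.46, adjusted p = 0.0648). With slide as a block the difference was 2.77 ± 0.37 in WT and 3.18 ± 0.37 in KO, and within slide 1 it was 2.73 ± 0.5 in WT.

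Tnfsf10 and Tnfsf15 went from signals at the background limit to clear signals after LPS. Tnfsf10 encodes TRAIL, a ligand that can start apoptosis through the receptor Tnfrsf10b, and its probe lies at chr3:27234836-27234895 (plus strand, mm9). The signals were -4.88 and -5.36 in WT unstimulated, -0.71 and -0.08 in WT LPS, -4.84 and -5.49 in KO unstimulated, and -1.12 and -0.83 in KO LPS. Neither WT unstimulated array and only replicate 1 of KO unstimulated was well above background. In WT the rise was therefore at least 17.5-fold on this scale, set against the lowest signal well above background where that was the higher value (fitted difference 4.73 ± 0.37, adjusted p = 0.000588). Such a bound, here and below, holds for this scale only and leaves out the spread between arrays. In KO the difference was 4.19 ± 0.37, 18.3-fold, with 1 of 2 unstimulated arrays measured (adjusted p = 0.000748).

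Tnfsf15 encodes TL1A, the ligand of Tnfrsf25, and its probe lies at chr4:63390979-63391038 (minus strand, mm9). The signals were -5.94 and -4.53 in WT unstimulated, 1.33 and 1.86 in WT LPS, -5.33 and -4.92 in KO unstimulated, and 0.7 and 1.71 in KO LPS. None of the 4 unstimulated arrays was well above background, and all 4 LPS arrays were. The rise of Tnfsf15 was at least 69.6-fold in WT on this scale (fitted difference 6.84 ± 0.55, adjusted p = 0.000676). For KO no lower bound is given, because the probe's own dim signals were the higher values on both unstimulated arrays. There the fitted difference was 6.33 ± 0.55, 80.2-fold (adjusted p = 0.000732), with no unstimulated array measured. The 2 folds give no order of the genotypes. Tnfsf10 and Tnfsf15 were called in both genotypes under each of the 21 alternatives. The bounds and the fitted differences depend on how dim signals are handled. With normexp the differences were 2.43 ± 0.52 and 2.74 ± 0.52 for Tnfsf10 in WT and KO, and 3.95 ± 0.5 and 3.59 ± 0.5 for Tnfsf15. In WT these lie below the bounds given above for the 2 ligands. With slide as a block the differences were 4.72 ± 0.43 and 4.18 ± 0.43 for Tnfsf10 and 7.07 ± 0.62 and 6.56 ± 0.62 for Tnfsf15, and within 1 slide they were 5.04 ± 0.51 and 3.86 ± 0.33 for Tnfsf10 and 7.1 ± 0.7 and 6.53 ± 0.56 for Tnfsf15.

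Fasl encodes the ligand of the death receptor Fas, known mostly from cytotoxic lymphocytes. It has 2 probes on chr1, at 163718079-163718138 and 163711300-163711359 (minus strand, mm9), the latter spotted 10 times. Neither was well above background on any of the 8 arrays, with scaled signals between -7.83 and -5.88, and among the spots of the replicated probe that were not outlying none was above background (1 outlying spot, on WT LPS replicate 2, was). Fasl was therefore not tested, and no fold change is given.

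Tnfsf13b encodes BAFF, a survival factor for B cells, and was the tested ligand with no call. Its main probe lies at chr8:10035561-10035620 (plus strand, mm9). The signals were -2.76 and -0.37 in WT unstimulated, -2.61 and -2.67 in WT LPS, -3.24 and -1.15 in KO unstimulated, and -3.24 and -3.23 in KO LPS. Replicate 2 of each unstimulated group was the higher array, by 2.39 in WT and 2.09 in KO, whereas the LPS replicates of a group lay within 0.07 of each other. The LPS difference was -1.08 ± 0.89 in WT (adjusted p = 0.436; 95% confidence interval -3.18 to 1.02) and -1.04 ± 0.89 in KO (adjusted p = 0.463; interval -3.14 to 1.06). Without the second unstimulated replicate the difference was 0.12 in WT and 0.01 in KO. A second probe, at chr8:10037383-10037442, was not well above background on any array. With slide as a block the difference was -0.57 ± 0.96 in WT and -0.53 ± 0.96 in KO, and within 1 slide it was -1.11 ± 0.98 and 0.01 ± 0.3.

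**Figure D3:**
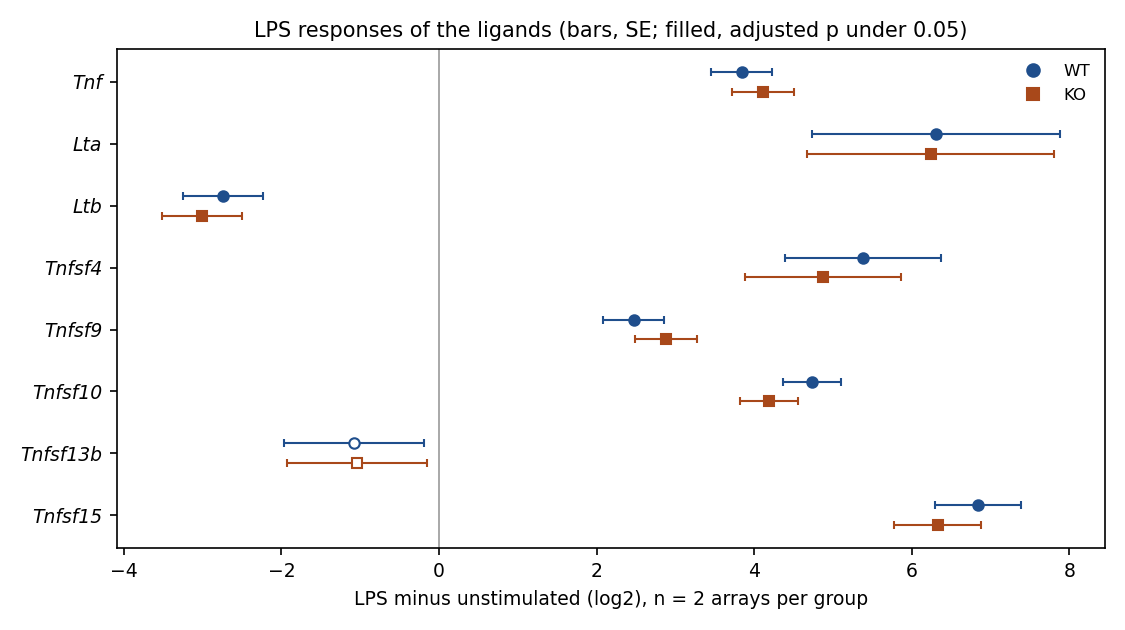
The LPS difference of each tested ligand (x axis, log2, LPS minus unstimulated) is shown for WT (circles) and KO (squares) with its SE; filled symbols passed the adjusted threshold. The 2 genotypes lie side by side for each ligand, Ltb alone is filled on the negative side, and Lta and Tnfsf4 have the widest bars (1.57 and 0.99).

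Several marker lists of other cell types moved with LPS alongside the ligands, and their part in the ligands' changes was not tested. Of 9 T cell markers, 2 to 4 were above background on an array. Cd3e was above it on every array, and Cd3g, Cd3d and Cd4 on none. Lck was above it on both LPS arrays and no unstimulated array of each genotype, and Cd2 and Lat the other way round. Of the 4 tested, 1 was called higher and 2 lower after LPS in each genotype. The summed level (unlogged scaled signals, where 1 is an array's 75th percentile) was 0.329 to 0.448 over the unstimulated arrays and 0.355 to 0.465 over the LPS arrays. Of 9 NK cell markers 0 to 4 were above background, with Nkg7, Gzma, Gzmb, Prf1 and Eomes on no array. Their sum was 0.406 to 0.773 in unstimulated and 0.0833 to 0.278 in LPS arrays. Klra8 was called lower (-2.64 ± 0.49 in WT, at least 5.76-fold in KO), as was Klrb1c (at least 2.65-fold in WT and 2.35-fold in KO). Klrd1 was not called (-1.55 ± 1.28 in WT and -2.17 ± 1.28 in KO). Of 8 B cell markers 3 to 5 were above background, with Cd79a, Ms4a1 and Pax5 on none; the sum was 47.9 to 62.2 before LPS and 131 to 210 after it, most of it from Blnk (mean signals 5.68 before and 7.37 after LPS in WT). On the same list Ighm was called lower (-6.04 ± 1.07 in WT and -5.77 ± 1.07 in KO), and Cd22 was not called (-2.91 ± 0.88 and -2.64 ± 0.88). Stromal markers went from 2 or 3 of 7 above background and a sum of 0.296 to 0.704 to 5 of 7 and 4.37 to 14. Basophil and mast cell markers went from 3 to 7 of 8 above background to 1 to 4 of 8, while their sum went from 0.931 to 3.62 up to 5.82 to 115, most of it from Hdc (mean signal 5.36 after LPS in WT). Neutrophil markers gave sums of 4.71 to 10.1 before and 8.39 to 10.1 after LPS, with 3 to 5 of 8 above background throughout. Within that list Camp went from 0 to 2 arrays above background in each genotype (at least 11-fold higher in WT and at least 19.8-fold in KO), and Ctsg from 2 to 0 (at least 5.34-fold lower in WT, adjusted p = 0.048; not called in KO, adjusted p = 0.0522).

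Between the genotypes, no ligand was called in unstimulated cells (0 of 8; 0.24% of all genes were called), after LPS (0 of 8; 0.026% of all genes) or in the difference between the 2 LPS responses (0 of 8; 0.0455% of all genes, 0.039% higher and 0.00649% lower in KO). By limma, 0 of the 8 had an unadjusted p under 0.05 in any of the 3 comparisons, beside 2.56%, 1.21% and 1.42% of all genes, and each adjusted p was 1. The genotype comparisons share their arrays with the LPS comparisons above, so the values are given side by side.

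In unstimulated cells the KO minus WT difference was -0.27 ± 0.39 for Tnf, 0.21 ± 0.51 for Ltb, 0.08 ± 0.39 for Tnfsf9 and -0.64 ± 0.89 for Tnfsf13b. For Lta it was -0.27 ± 1.57 and for Tnfsf4 -0.31 ± 0.99, with 1 array of each group measured above background. Both WT unstimulated arrays lay on slide 1, so genotype and slide are partly mixed. With slide as a block the difference was -0.63 ± 0.31 for Tnf, 0.6 ± 0.5 for Ltb and 0.38 ± 0.37 for Tnfsf9. It was -0.13 ± 0.96 for Tnfsf13b, -1.5 ± 1.52 for Lta and -0.08 ± 1.17 for Tnfsf4, and none was called. For Tnfsf10 and Tnfsf15, which were at or near the background limit in both unstimulated groups, a genotype difference before LPS was not measurable here. No ligand had unstimulated arrays of KO and WT that did not overlap.

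After LPS the KO minus WT difference of Tnf was -0.01 ± 0.39, with a 95% confidence interval of -0.92 to 0.91. For Tnfsf9 it was 0.49 ± 0.39 (interval -0.44 to 1.42), and for Ltb -0.06 ± 0.51 (interval -1.28 to 1.16). For Tnfsf15 it was -0.39 ± 0.55 (interval -1.7 to 0.91), for Tnfsf4 -0.82 ± 0.99 (interval -3.16 to 1.52) and for Lta -0.35 ± 1.57 (interval -4.07 to 3.37). Lta and Tnfsf4 therefore have intervals that leave room for differences of several-fold in either direction, while those of Tnf and Tnfsf9 are the narrower ones of this set. Both KO LPS arrays lay on slide 2. With slide as a block the difference was -0.37 ± 0.31 for Tnf, 0.79 ± 0.37 for Tnfsf9 and 0.33 ± 0.5 for Ltb. It was -0.16 ± 0.62 for Tnfsf15, -0.59 ± 1.17 for Tnfsf4 and -1.57 ± 1.52 for Lta. With normexp the 6 values, in this order, were -0.79 ± 0.61, 0.18 ± 0.5, 0.55 ± 0.64, -0.84 ± 0.5, -1.04 ± 0.67 and -0.81 ± 0.8. None was called, and the direction of Ltb turned under each.

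Tnfsf10 and Tnfsf13b were the 2 ligands whose KO LPS arrays lay below both WT LPS arrays. Tnfsf10 was -1.12 and -0.83 in KO LPS against -0.71 and -0.08 in WT LPS, a difference of -0.58 ± 0.37 (interval -1.45 to 0.29). Tnfsf13b was -3.24 and -3.23 against -2.61 and -2.67, a difference of -0.6 ± 0.89 (interval -2.7 to 1.51). Neither passed the test. Within slide 2, where both KO LPS arrays and 1 WT LPS array lay, the differences were -0.27 ± 0.33 and -0.63 ± 0.3 (adjusted p = 1 for both). With slide as a block they were -0.59 ± 0.43 for Tnfsf10 and -0.09 ± 0.96 for Tnfsf13b. With normexp background correction the direction turned for Tnfsf13b (0.69 ± 0.78) and the difference was -0.16 ± 0.52 for Tnfsf10.

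The LPS response of KO minus that of WT was 0.26 ± 0.55 for Tnf (interval -1.03 to 1.56), -0.27 ± 0.73 for Ltb (-2 to 1.46) and 0.41 ± 0.56 for Tnfsf9 (-0.91 to 1.72). For Tnfsf4 it was -0.51 ± 1.39, for Tnfsf13b 0.04 ± 1.25 and for Lta -0.07 ± 2.22. For Tnfsf10 and Tnfsf15, with 1 and 0 of 4 unstimulated arrays above background, the difference between responses is not measured here; Lta and Tnfsf4 had 2 of 4. A response difference within these intervals was not detectable with 2 arrays per group, and the missing calls do not show that the genotypes respond alike.

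**Figure D4:**
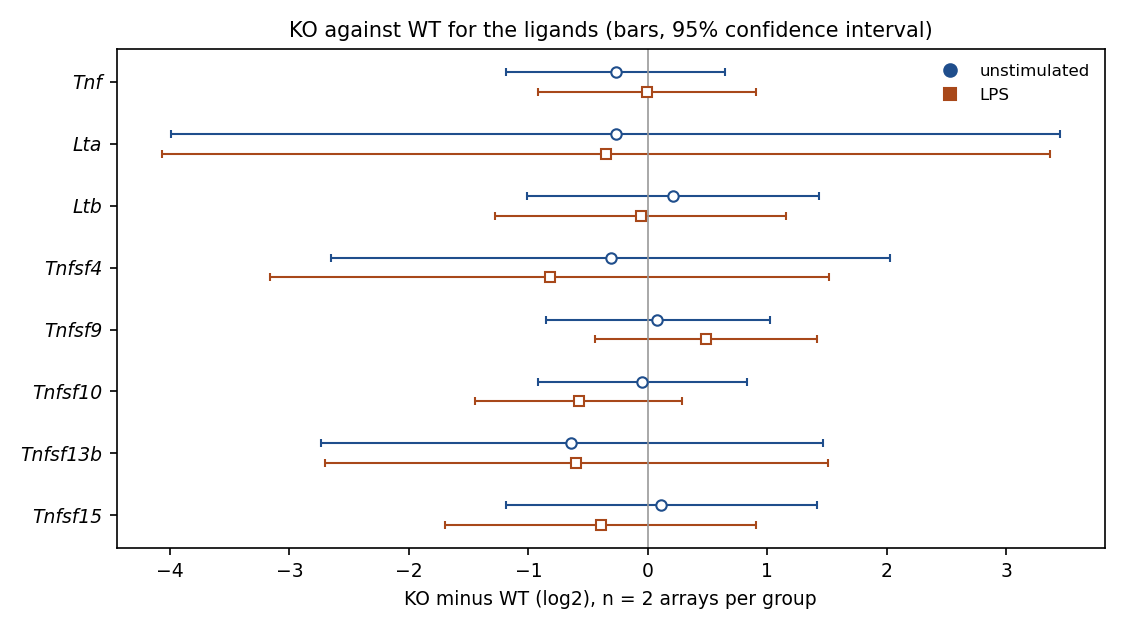
KO minus WT differences of the 8 tested ligands (x axis, log2) are shown for unstimulated arrays (circles) and LPS arrays (squares) with 95% confidence intervals; open symbols did not pass the test. Every interval includes 0, and those of Lta are the widest, from -3.99 to 3.45 before and -4.07 to 3.37 after LPS.

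Replicates of a group differed by ligand rather than by a common offset. For Lta, replicate 1 was higher in all 4 groups, by 1.53 in WT LPS and 0.98 in KO LPS, and in the unstimulated groups it alone was above background. For Tnfsf4, replicate 1 alone was above background in the unstimulated groups, and in the LPS groups it was the lower array (by 1.98 in WT and 2.16 in KO). Ltb and Tnfsf9 had the lower signal in replicate 1 in all 4 groups, with gaps of 0.06 to 1.24 and 0.33 to 0.75, and Tnfsf15 in both LPS groups, by 0.53 and 1.01. For Tnfsf10 after LPS, replicate 1 minus replicate 2 was -0.63 in WT and -0.29 in KO. For Tnfsf13b it was -2.39 and -2.09 unstimulated, and 0.07 and -0.01 after LPS. For Tnf it was -0.3 and 1.02 unstimulated, and 0.44 and -0.12 after LPS. Within a condition the gaps thus had the same direction in WT and KO, apart from Tnf and, after LPS, Tnfsf13b. The replicate numbers come from the labels, which do not say what they mark.

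Other ligands of the superfamily were mostly below the limit. Of 9 listed, 8 were on the array under the listed name and 3 passed the filter (Tnfsf8, Tnfsf12 and Tnfsf14), and none was called in either LPS response, beside 20.2% and 20.8% of all genes. These 3 are named after their values were seen. Tnfsf14 (LIGHT), which shares the receptor Ltbr with the lymphotoxin complex, had a mean signal of -0.06 before and -4.53 after LPS in WT, with 1 of 2 LPS arrays above background; its difference of -4.47 ± 1.4 in WT (adjusted p = 0.0658) and -4.2 ± 1.4 in KO (adjusted p = 0.0782) did not pass.

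Among the receptors of these ligands, 14 of 16 were tested, and 3 rose and none fell in each genotype, with a median difference of 0.14 in WT and 0.16 in KO. Over all genes 9.48% (WT) and 10.3% (KO) were called higher and 20.2% and 20.8% in either direction, and the receptors' share called is close to the latter. Tnfrsf9 (4-1BB), the receptor of Tnfsf9, rose by 5.46 ± 0.39 in WT and 5.9 ± 0.39 in KO (adjusted p = 0.000438 and 0.000301), with 1 of 2 unstimulated arrays above background in each genotype. Tnfrsf9 thus passed the filter through the LPS groups alone, so its part in the receptor count and median is not independent of the filter. Tnfrsf1b, the second receptor of Tnf, rose by 2.05 ± 0.51 and 2.2 ± 0.51 (adjusted p = 0.0328 and 0.0253). Fas rose by 1.34 ± 0.36 and 1.57 ± 0.36 (adjusted p = 0.042 and 0.0243).

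The first Tnf receptor, Tnfrsf1a, had a difference of 0.11 ± 0.25 in WT and 0.15 ± 0.25 in KO, and the lymphotoxin receptor Ltbr 0.02 ± 0.25 and -0.01 ± 0.25. Their intervals are narrow, -0.48 to 0.7 for Tnfrsf1a and -0.56 to 0.61 for Ltbr in WT. Tnfrsf4 (OX40), the receptor of Tnfsf4, had 0.97 ± 0.47 and 1.3 ± 0.47, short of the threshold (adjusted p = 0.196 and 0.0985). The TRAIL receptor Tnfrsf10b (0.18 ± 0.72 and 0.32 ± 0.72), the BAFF receptors Tnfrsf13b (-0.54 ± 0.83 and -0.96 ± 0.83) and Tnfrsf13c (0.96 ± 1.28 and 0.17 ± 1.28), and the TL1A receptor Tnfrsf25 (-2.1 ± 1.51 and -1.91 ± 1.51) were not called either. Tnfrsf9 was called under all 21 alternatives in both genotypes. Tnfrsf1b was called in 15 of 21 in WT and 16 of 21 in KO, and Fas in 8 of 21 and 15 of 21. In WT, Fas missed the threshold without any 1 of 7 of the 8 arrays (0.9 to 1.41), all but WT unstimulated replicate 2. In KO, Fas missed it without any 1 of the 4 KO arrays (1.3 to 1.84). Tnfrsf1b missed it in WT without WT unstimulated replicate 1 or either WT LPS replicate (1.46, 2.15 and 1.96), and in KO without KO unstimulated replicate 1 or either KO LPS replicate (1.61, 2.12 and 2.28). With normexp background correction neither receptor was called, at 2.11 ± 0.68 and 1.36 ± 0.68 for Tnfrsf1b and 1.29 ± 0.6 and 0.82 ± 0.6 for Fas in WT and KO.

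Adaptors and survival inhibitors that act below these receptors rose in 8 of 16 cases in each genotype and fell in none, with a median difference of 0.93 in WT and 0.9 in KO, beside 9.48% and 10.3% of all genes called higher. Traf1, an adaptor of Tnfrsf1b and Tnfrsf9, rose by 3.77 ± 0.41 in WT and 4.18 ± 0.41 in KO (adjusted p = 0.00172 and 0.00106). Cflar (c-FLIP), which blocks caspase-8 at death receptors, rose by 3.66 ± 0.28 and 3.82 ± 0.28 (adjusted p = 0.000585 and 0.000412). Tnfaip3 (A20), a ubiquitin-editing enzyme that limits NF-kB signalling, rose by 3.55 ± 0.35 and 3.75 ± 0.35 (adjusted p = 0.00138 and 0.000962). Map3k14 (NIK), the kinase of the NF-kB branch that Ltbr uses, rose by 1.97 ± 0.46 and 2.39 ± 0.46 (adjusted p = 0.0272 and 0.0137). Traf1, Cflar and Tnfaip3 were called whichever array was left out, but within slide 2 Traf1 (4.11 ± 0.5, adjusted p = 0.0547) and Tnfaip3 (3.48 ± 0.41, adjusted p = 0.0541) missed the threshold in KO. Map3k14 missed the threshold in WT without either WT unstimulated replicate or WT LPS replicate 2 (1.67, 2.27 and 1.47), and in KO without either KO unstimulated replicate or KO LPS replicate 2 (2.21, 2.56 and 1.95), and in both with normexp (1.97 ± 0.56 and 1.5 ± 0.56).

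Of 10 genes that process or release the ligands, 3 rose and none fell in each genotype. Over all genes 9.48% (WT) and 10.3% (KO) were called higher, and 20.2% and 20.8% in either direction. Sppl2a, an intramembrane protease that cuts the stub left by Tnf shedding and is named 2010106G01Rik on the array, rose by 1.81 ± 0.26 in WT and 1.63 ± 0.26 in KO (adjusted p = 0.00519 and 0.00707). Rhbdf2 (iRhom2), which brings the Tnf sheddase Adam17 to the surface, rose by 1.34 ± 0.28 and 1.28 ± 0.28 (adjusted p = 0.019 and 0.0216). Mmp7, a metalloproteinase, was above background on no unstimulated array and on 1 of 2 WT and 2 of 2 KO LPS arrays. Its rise was at least 2.65-fold in KO (fitted difference 3.27 ± 0.46, adjusted p = 0.00403), and the fitted difference in WT was 1.73 ± 0.46 (adjusted p = 0.0397). Mmp7 passed the filter through KO LPS alone, so its part in the count of 3 is not independent of the filter. Rhbdf2 missed the threshold in WT without WT unstimulated replicate 2 or either WT LPS replicate (1.1, 1.41 and 1.28) and in KO without any 1 of the 4 KO arrays (1.12 to 1.44). Mmp7 missed it in WT without either WT unstimulated replicate (1.62 and 1.84), WT LPS replicate 2 (1.12) or either KO unstimulated replicate (1.73 both times), and Sppl2a in KO without KO LPS replicate 2 (1.49). None of the 3 was called with normexp, where Mmp7 was 0.08 ± 0.7 in WT and 2.09 ± 0.7 in KO, Sppl2a 1.82 ± 0.55 and 0.84 ± 0.55, and Rhbdf2 1.46 ± 0.59 and 0.63 ± 0.59.

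Of 11 genes that act on Tnf mRNA stability or translation, 2 rose in WT, and 1 rose and 1 fell in KO, a share near the 20.2% and 20.8% of all genes called in either direction. Zc3h12a (Regnase-1), a ribonuclease that degrades cytokine mRNAs, rose by 2.48 ± 0.26 in WT and 2.61 ± 0.26 in KO (adjusted p = 0.00164 and 0.00116). Mapkapk2, the kinase that inactivates the mRNA-destabilising protein Zfp36, rose by 1.28 ± 0.3 in WT (adjusted p = 0.0267); its difference in KO was 1.03 ± 0.3 (adjusted p = 0.0531). Zfp36l2, a relative of Zfp36, fell in KO by 3.96 on the log2 scale (SE 0.9, adjusted p = 0.0231), while its difference in WT was -2.63 ± 0.9 (adjusted p = 0.0855). No gene of any of these lists was called between the genotypes or in the difference between responses, so the calls in 1 genotype alone are not a measured difference between them. Zc3h12a missed the threshold in WT with normexp (1.94 ± 0.51, adjusted p = 0.0553) and in KO within slide 2 (2.42 ± 0.3, adjusted p = 0.0561). Mapkapk2 missed it in WT without any 1 of the 4 WT arrays (1.06 to 1.51), with normexp (1.29 ± 0.53) and with only the 2 groups fitted (1.28 ± 0.33). In KO it passed with slide as a block (1.23 ± 0.3) and with the mean of its probes (1.13 ± 0.29). Of the 21 alternatives, 13 called it in WT and 4 in KO. Zfp36l2 missed it in KO without either KO unstimulated replicate or KO LPS replicate 2 (-4.36, -3.56 and -2.58), passed it in WT without either KO LPS replicate (-2.63 both times), and with normexp background correction its KO difference was 0.01 ± 0.71. In KO it also missed the threshold with slide as a block (-4.09 ± 1.07). With only the 2 groups fitted it passed in WT (-2.63 ± 0.54) and missed in KO (-3.96 ± 0.94). Of the 21 alternatives, 4 called it in WT and 14 in KO.

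**Figure D5:**
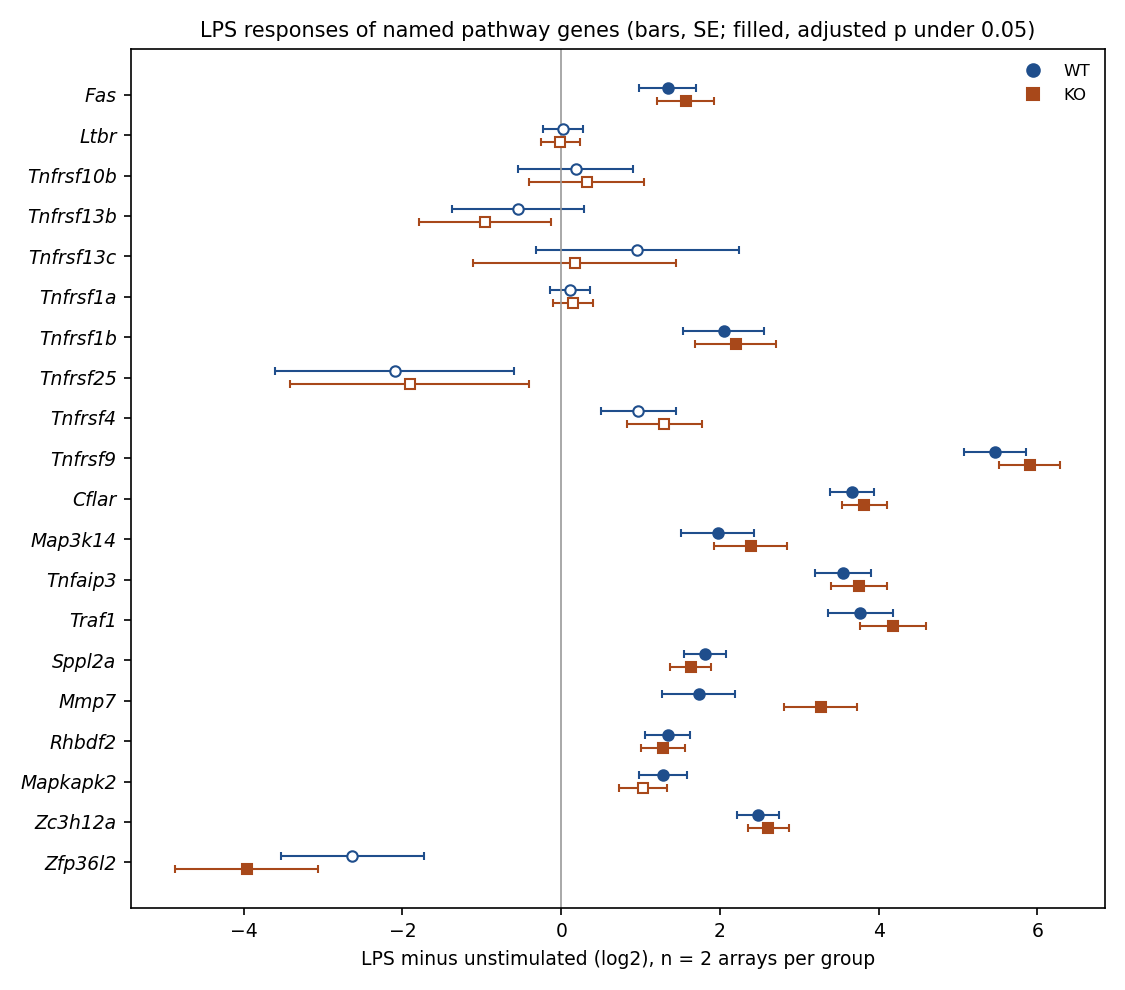
LPS differences (x axis, log2, LPS minus unstimulated) of the named receptors, adaptors, processing genes and mRNA regulators are shown for WT (circles) and KO (squares) with the SE; filled symbols passed the adjusted threshold. Tnfrsf9 has the largest rise of those shown (5.46 in WT and 5.9 in KO), and Tnfrsf1a and Ltbr lie next to 0.

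The genes whose pattern over the 8 arrays was most like each ligand were ranked by the root mean square (RMS) difference of log2 signals after each gene was centred on its own mean. The 8 arrays fall into LPS and unstimulated arrays, so likeness mostly means an LPS difference of similar size. Tnf was nearest to Parp14, an ADP-ribosyltransferase, at an RMS of 0.2, and then to Cflar and Slfn5 (0.22 each). Cflar is also on the list of adaptors above and rose 12.6-fold in WT, beside 14.4-fold for Tnf. Lta was nearest to Ptx3, a secreted pattern-recognition molecule (RMS 0.65), then to the unnamed transcript NAP109359-1 (0.72) and to the collagen gene Col4a2 (0.77). Its neighbours were farther off than those of Tnf.

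Ltb was nearest to Add3, a membrane skeleton protein (RMS 0.19), Prr11 (0.23) and Gmpr (0.24), each of which fell in both genotypes. Tnfsf9 was nearest to the kinase anchor gene Akap12 (0.13), Rapgef2 and Kctd14 (0.19 each). Tnfsf4 was nearest to the interferon-induced GTPase gene Mx1 (0.57), Syt7 (0.6) and Trem3 (0.64). Tnfsf10 was nearest to D14Ertd668e (0.29), Rcl1 (0.32) and Tarm1 (0.33). Tnfsf15 was nearest to the calcium channel subunit gene Cacnb3 (0.38), Nudt17 (0.47) and Il23r, a subunit of the interleukin-23 receptor (0.49). Tnfsf13b was nearest to Cyp4f18 (0.22), Plk1s1 and Fbxo32 (0.34 each), none of which was called in either LPS response. Akap12 rose by 2.38 ± 0.4 in WT and 2.54 ± 0.4 in KO, close to the 2.47 and 2.88 of Tnfsf9.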

How the data were processed

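Total RNA of 8 sorted cell samples was hybridised to 8 one-colour (Cy3) Agilent mouse arrays with 60-base probes. The authors deposited scanner output from Agilent Feature Extraction 10.5.1.1 (per the file headers), whose processed signal is an intensity after background subtraction and detrending (mm9 positions), and a series table of log2 values. The deposited log2 values equal the processed signals up to an offset per array. Each log2 processed intensity was taken relative to its array's 75th percentile. Control spots and outlier-flagged spots were left out, and spots of a probe were averaged. Probes stayed in (23738) if, in 1 group or more, both arrays showed them well above background, and a gene was represented by its brightest probe. The 4 groups were fitted with limma 3.58.1 in R 4.3.3 (eBayes, 4 residual degrees of freedom), with Benjamini-Hochberg adjustment over all genes and a threshold of 0.05. Only 2 arrays per group limit the precision. The script was tested on simulated data. The members and gene lists were chosen with earlier results of these data known. Named genes were all members, 10 receptors, up to 4 called genes of every other list with the largest LPS change, and the 3 genes most like each tested member. Windows that overlap an annotated gene were left out of the printed promoters, a choice made after seeing the windows. Positions relative to exons and UTRs on mm9 were not analysed here.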

Additional observations from a re-analysis of the deposited data

How the results depend on the processing

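Each result was recomputed under 21 alternatives (19 for the difference between responses), covering scaling, background correction, the deposited table, the dim-probe filter, the probe rule, outlying spots, slide, replicate block, moderation, the groups fitted and each array left out. In WT the number of ligands called after LPS was 7, between 4 and 7 with 1 array left out (4 without WT unstimulated replicate 2), 5 with normexp, and 6 without the filter, with slide as a block and within slide 1. In KO it was 7, between 4 and 7 with 1 array left out (4 without KO unstimulated replicate 2), 3 within slide 2, and 6 with normexp, without the filter and with slide as a block. The cause was not tested; the within-slide and left-out fits hold fewer arrays. Without the filter on dim probes the Lta difference was 6.31 ± 1.56 in WT (adjusted p = 0.0531) and 6.24 ± 1.56 in KO (adjusted p = 0.0532). No ligand was called between genotypes or in the difference between responses under any alternative run. The replicate block left 7 ligands called in WT and 7 in KO and changed no call of a ligand; among other named genes Tnfrsf4 (1.3 ± 0.33, adjusted p = 0.0338) and Mapkapk2 (1.03 ± 0.26, adjusted p = 0.0326) became called in KO. With the block 4155 genes were called in WT and 4184 in KO, and the SE of the Lta difference went from 1.57 to 0.8 (adjusted p = 0.00358 in WT). Correlations of replicate deviations were 0.69 for WT LPS with KO LPS, 0.5 for WT with KO unstimulated and 0.01 to 0.33 for other pairs of groups. The second principal component (9.6% of the variance) separated replicates 1 (17.7 to 44.7) from replicates 2 (-42.4 to -22). The genotype intervals above come from the fit without the block. With it the KO minus WT difference after LPS was 0.49 ± 0.23 for Tnfsf9, -0.39 ± 0.31 for Tnfsf15 and -0.35 ± 0.8 for Lta, with smaller SE than before. For Tnfsf4 it was -0.82 ± 1.03, with a larger SE. There are only 2 numbers and the labels do not say what they mark, so they were not taken as pairs. The fall of Zfp36l2 in KO became 0.01 with normexp, the 1 change of direction that involved a call. Values called under neither setting also changed direction. This occurred 51 times for the ligands in the genotype comparisons and the difference between responses. In the LPS responses it occurred 4 times for the ligands and 25 times for the other named genes. Over all genes the LPS calls were 3105 in WT and 3201 in KO; they were 687 (417 higher, 270 lower) and 936 (580 and 356) with normexp, 1533 and 445 within 1 slide, and 1441 to 2865 and 1423 to 3107 with 1 array left out. Genotype calls over all genes ranged from 0 to 56 (37) before LPS and 0 to 7 (4) after it, and calls in the difference from 0 to 14 (7). The median LPS difference of all genes shifted by over 0.1 with the array median subtracted (-0.11 in WT and -0.14 in KO), with normexp (0.15 in KO) and without the filter (-0.36 in WT and 0.12 in KO). Signals near background limit Lta, Tnfsf4, Tnfsf10, Tnfsf15 and Fasl most.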
